A study of Mus musculus with 24 samples.

Results

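The NK homeobox genes *Nkx2-1*, *Nkx2-2*, *Nkx2-3*, *Nkx2-4*, *Nkx2-5*, *Nkx3-2*, *Nkx6-1* and *Nkx6-2* were examined for H3K4me3 and H3K27me3 in supporting cells of the fetal mouse gonad. These 8 genes, of 22367 protein-coding genes in the annotation, were chosen by name, with earlier results of these data known. Each was followed over 2 kb on each side of its transcription start site (TSS), here the promoter window, and over its gene body. Nkx proteins are transcription factors that bind DNA through a homeodomain and set organ and neuron identity in the embryo, and they are best known outside the gonad. H3K4me3 is a histone mark found at CpG-rich promoters, and H3K27me3 is the mark laid down by Polycomb repressive complex PRC2. Promoters that carry both marks are called bivalent, a state known from developmental regulators that are silent or lowly expressed but can be switched on or shut down later.

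The study sorted 4 populations by flow cytometry from pooled gonads of mice on a mixed C57BL/6 and CD1 background, each with a fluorescent reporter and no other allele named. XY and XX progenitor cells came from E10.5 male and female gonads with the SF1-eGFP reporter, Sertoli cells from E13.5 male gonads with Sox9-CFP, and pregranulosa cells, labelled granulosa cells, from E13.5 female gonads with TESM-CFP, a line written TESMS-CFP in the study's methods. Chromatin was precipitated for H3 and for each mark in 2 replicates per population, giving 24 samples, and 8 peak lists were deposited, 1 per mark and population. Each list pools both replicates, so the values below carry no replicate error and no p-value compares populations. The reporters define the cells, and SF1 also marks steroidogenic precursors, so a population can hold more than supporting cells. Both marks called at a promoter could lie on different cells or alleles of the population.

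The lists were called from 10162534 H3K4me3 and 6470151 H3K27me3 tags in XY progenitors, 49254553 and 33185400 in XX progenitors, and 31104760 and 44446456 in Sertoli cells. The depth of the pregranulosa lists is unknown. The labels were checked against markers. All 6 Sertoli markers, among them *Sox9* and *Amh*, had H3K4me3 without H3K27me3 in Sertoli cells and 0 of 6 did in pregranulosa cells. Of 6 pregranulosa markers, *Wnt4*, *Rspo1* and *Bmp2* had H3K4me3 without H3K27me3 in pregranulosa cells, and 0 of 6 did in Sertoli cells. The other 3 were bivalent in pregranulosa cells, *Foxl2* and *Irx3* with H3K27me3 over all 4001 bp, as in Sertoli cells, and *Fst* with 1284 bp. All 5 progenitor markers were bivalent at E10.5, but so were all 6 pregranulosa markers and both mesonephric markers, so this state does not identify progenitors. H3K4me3 without H3K27me3 was found at 0 of 5 progenitor markers in both progenitor lists, at 3 of 5 in Sertoli cells and at 5 of 5 in pregranulosa cells. H3K4me3 was called at 0 of 2 blood markers in 3 populations and at 1 of 2 in pregranulosa cells, and at 1, 1, 1 and 2 of 4 endothelial markers in XY progenitor, XX progenitor, Sertoli and pregranulosa cells. It was called at 1, 2, 3 and 2 of 4 germ cell markers, at 1, 2, 1 and 2 of 3 steroidogenic markers and at both mesonephric markers in each list. H3K4me3 without H3K27me3 was found at 0 of 2 mesonephric markers in each list, since both were bivalent throughout. In the same order it was found at 0, 0, 0 and 1 of 4 endothelial and at 1, 1, 1 and 2 of 4 germ cell markers. For steroidogenic markers the counts were 1, 2, 1 and 2 of 3, with *Star* among them in every list, and for blood markers 0, 0, 0 and 1 of 2. The part of such cells in the Nkx values was not tested.

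Upstream sequences of 4 members are shown because they mark the ends of the range described below. *Nkx6-2* and *Nkx6-1* had the most CpG dinucleotides and a TSS inside H3K4me3 in all 4 populations, whereas *Nkx2-1* and *Nkx2-5* had the fewest and often lacked H3K4me3 at the TSS. Each run holds the 250 bases before the TSS on mm9 (NCBIM37), 5′ to 3′ on the strand of the gene, which is the minus strand in all 4, and capitals mark CpG dinucleotides. The runs lie at chr7:146768697-146768946, chr5:102094246-102094495, chr12:57637896-57638145 and chr17:26978511-26978760, and hold 26, 19, 9 and 8 CpGs.
Nkx6-2: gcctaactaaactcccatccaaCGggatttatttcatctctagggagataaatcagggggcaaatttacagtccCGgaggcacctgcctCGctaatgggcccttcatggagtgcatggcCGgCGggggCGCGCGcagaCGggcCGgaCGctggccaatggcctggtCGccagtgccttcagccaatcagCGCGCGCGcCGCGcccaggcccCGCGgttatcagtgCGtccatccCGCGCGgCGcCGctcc
Nkx6-1: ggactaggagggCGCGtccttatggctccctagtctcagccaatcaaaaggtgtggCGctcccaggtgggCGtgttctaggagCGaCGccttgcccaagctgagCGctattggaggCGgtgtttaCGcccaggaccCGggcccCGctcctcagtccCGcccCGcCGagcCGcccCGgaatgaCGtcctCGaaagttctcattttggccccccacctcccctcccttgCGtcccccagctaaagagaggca
Nkx2-1: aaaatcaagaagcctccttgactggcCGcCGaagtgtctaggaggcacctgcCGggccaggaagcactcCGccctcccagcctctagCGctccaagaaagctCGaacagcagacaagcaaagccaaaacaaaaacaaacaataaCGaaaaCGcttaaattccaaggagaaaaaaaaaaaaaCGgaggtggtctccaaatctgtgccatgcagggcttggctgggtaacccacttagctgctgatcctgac
Nkx2-5: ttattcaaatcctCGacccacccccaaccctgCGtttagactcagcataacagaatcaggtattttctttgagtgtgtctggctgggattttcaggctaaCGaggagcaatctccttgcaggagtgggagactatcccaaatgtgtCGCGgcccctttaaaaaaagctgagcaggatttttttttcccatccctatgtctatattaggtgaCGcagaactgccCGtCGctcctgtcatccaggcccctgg

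A pair of distal runs is shown because H3K4me3 was called over them in all 4 populations, within the H3K27me3 region of the promoter and away from any annotated TSS. Each holds the middle 200 bases of a stretch covered by H3K4me3 in every list. The run upstream of *Nkx2-3* lies at chr19:43659408-43659607 on the plus strand and holds 9 CpGs, and that upstream of *Nkx2-5* lies at chr17:26987493-26987692 on the minus strand and holds 18.
Nkx2-3 upstream: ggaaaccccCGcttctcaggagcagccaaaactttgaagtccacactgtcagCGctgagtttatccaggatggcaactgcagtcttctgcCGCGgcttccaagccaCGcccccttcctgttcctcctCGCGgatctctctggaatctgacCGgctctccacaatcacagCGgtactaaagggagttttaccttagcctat
Nkx2-5 upstream: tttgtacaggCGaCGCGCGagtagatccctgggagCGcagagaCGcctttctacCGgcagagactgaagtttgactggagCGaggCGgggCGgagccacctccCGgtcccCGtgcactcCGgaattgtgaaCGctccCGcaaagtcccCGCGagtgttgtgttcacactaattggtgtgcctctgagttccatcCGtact

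The promoters of all 8 Nkx genes were bivalent in all 4 populations. H3K27me3 covered all 4001 bp of every promoter window and 100% of every gene body, in XY and XX progenitors, Sertoli cells and pregranulosa cells alike. H3K4me3 was called in each window too, over 520 to 4001 bp. A window was called marked when at least 1 bp was covered. Over all protein-coding genes, 20.4% of promoters were bivalent in XY progenitors, 22.4% in XX progenitors, 18.7% in Sertoli and 20.4% in pregranulosa cells, and 13.6% (95% exact binomial interval 13.2 to 14.1, counting error only) were bivalent in all 4. H3K4me3 alone or with H3K27me3 was at 64.2%, 66.0%, 64.9% and 66.3% of promoters in the same order, and H3K27me3 at 23.0%, 24.8%, 23.5% and 23.7%. A window wholly covered by H3K27me3 in all 4 lists was found at 10.2% of protein-coding genes, and at 14.6%, 18.3%, 16.8% and 17.8% in the single lists. The gene body was wholly covered at 4.58%, 6.61%, 6.00% and 6.15% of genes in the same order. These shares were not matched for gene length, and the bodies of the 8 Nkx genes were only 2130 to 16698 bp long. Of promoters bivalent in both progenitor populations, 72.7% were bivalent in all 4, as were 8 of 8 Nkx promoters. H3K27me3 was therefore present across the Nkx genes both before and after the sexes diverged, and 0 of 8 members changed state between any pair of populations. The H3K4me3 call was the part that depended on the limit: with at least 50% of the window required, 5 members were bivalent in XY progenitors, 4 in Sertoli cells and 4 in all 4 populations, *Nkx2-2*, *Nkx3-2*, *Nkx6-1* and *Nkx6-2*. It also depended on the start and the regions used. Bivalent in all 4 were 7 members with TSS ± 1 kb and 6 with the widest 75% of regions. At the RefSeq starts 7 were, all but *Nkx2-2*, which had H3K27me3 alone in XY progenitors.

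**Figure D1:**
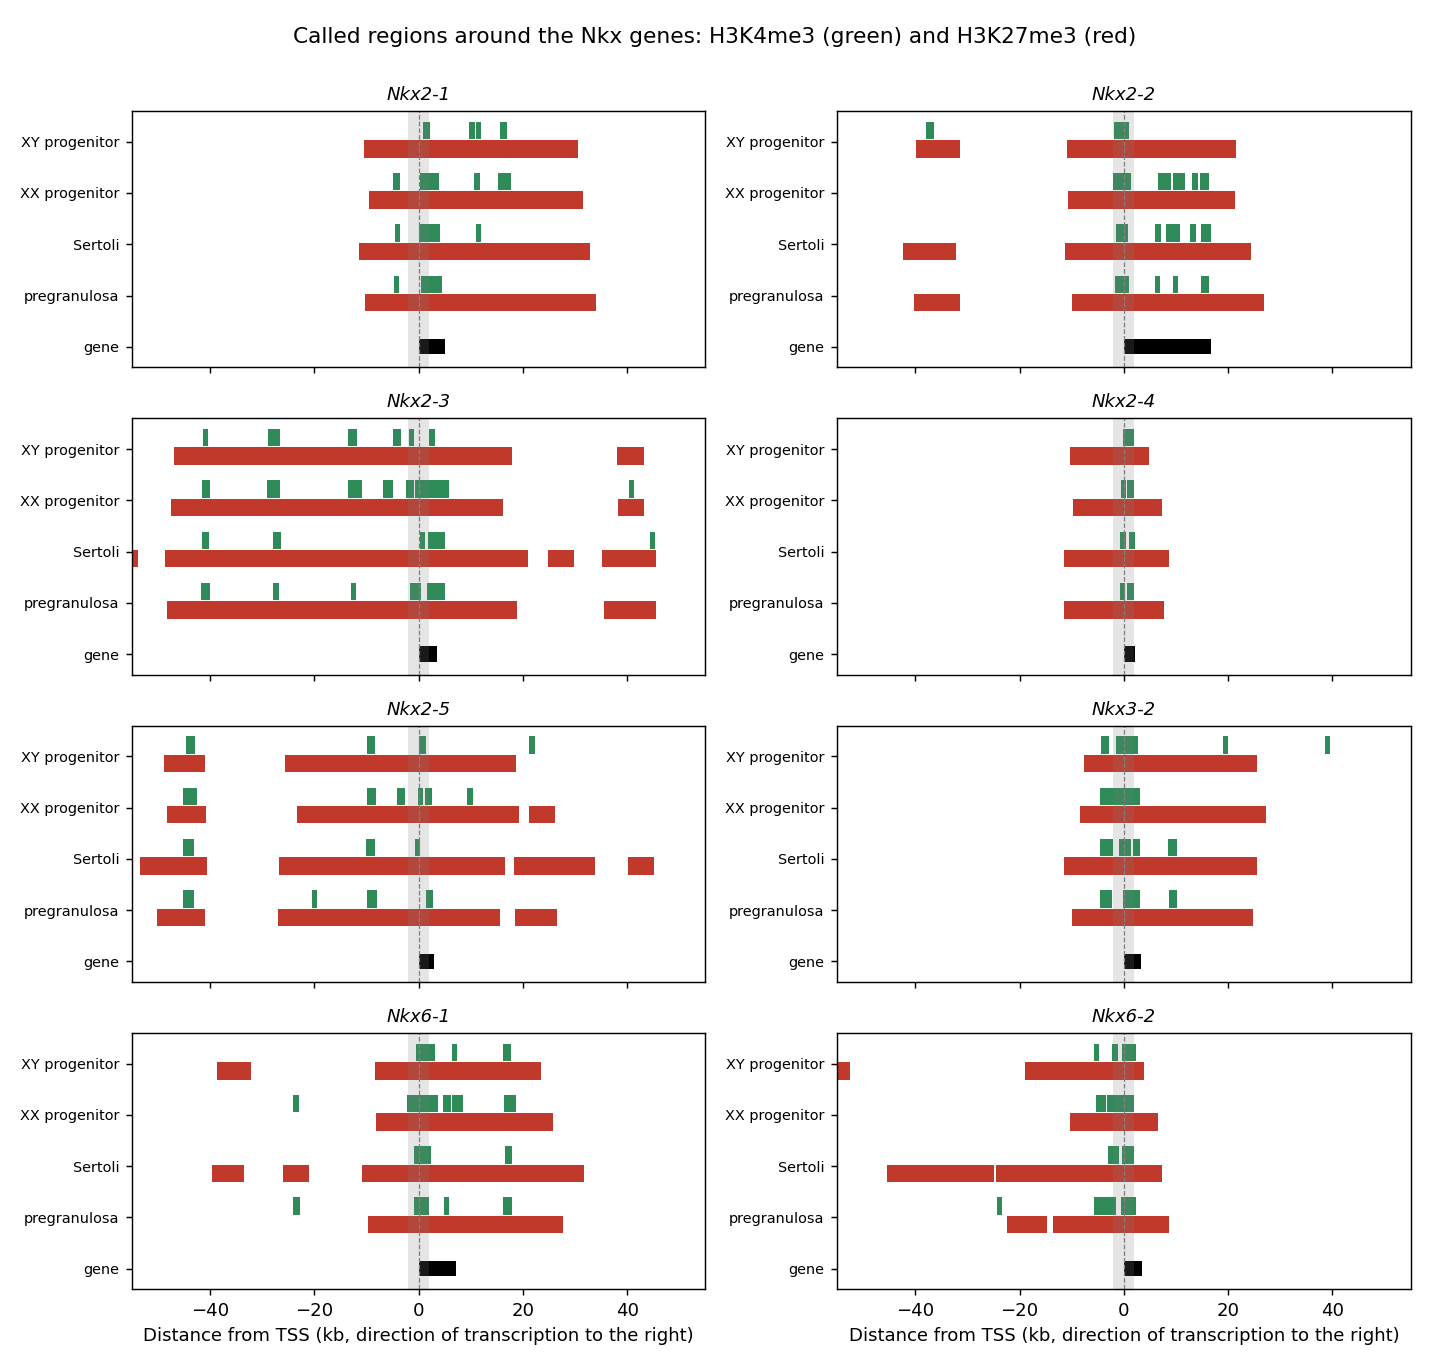
Regions called for H3K4me3 (green) and H3K27me3 (red) in the 4 populations around the TSS of each Nkx gene, with distance in kb on the x axis, upstream to the left, and the gene as a black bar. The grey band marks the promoter window of 2 kb on each side. In every panel a red region spans the whole grey band and the whole gene, with shorter green stretches inside it. Some further green stretches lie outside it, for example 38544 to 39544 bp downstream of the *Nkx3-2* TSS in XY progenitors.

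*Nkx2-1*, *Nkx2-2* and *Nkx2-4* are NK2 genes of the ventral forebrain, the ventral neural tube and endoderm. *Nkx2-1* is required for lung, thyroid and ventral forebrain. It lies on the minus strand of chromosome 12 from 57632922 to 57637895 (ENSMUSG00000001496.7). H3K4me3 covered 1182 bp of its window in XY progenitors, 1663 bp in XX progenitors, 1976 bp in Sertoli cells and 1597 bp in pregranulosa cells. In each list this was 1 region that started downstream of the annotated TSS, by 819, 338, 25 and 404 bp in the same order, and ran 2107 to 4518 bp into the gene. The TSS of *Nkx2-1* was thus outside H3K4me3 in all 4 populations, with H3K27me3 over it in all 4. The RefSeq start of the gene falls on the same base.

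*Nkx2-2*, which specifies ventral neural progenitors and pancreatic endocrine cells, lies on the minus strand of chromosome 2 from 147003282 to 147019979 (ENSMUSG00000027434.9). H3K4me3 covered 2826, 3371, 2360 and 2702 bp of its window in XY progenitors, XX progenitors, Sertoli cells and pregranulosa cells, with the TSS inside in all 4. The gene body differed more between populations than the promoter, with 6.07% covered in XY progenitors, 54.2% in XX progenitors, 44.6% in Sertoli and 26.7% in pregranulosa cells. The RefSeq start of *Nkx2-2* lies 7841 bp inside the annotated gene, and around it H3K4me3 covered 0, 2963, 2791 and 1456 bp. At that start the XY progenitor list therefore had H3K27me3 alone and the other 3 lists had both marks. The noncoding *Nkx2-2as* overlaps the gene on the opposite strand, and regions there cannot be assigned to either.

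*Nkx2-4*, a close paralogue of *Nkx2-1* expressed in the ventral diencephalon, lies on the same chromosome from 146909052 to 146911181 on the minus strand (ENSMUSG00000054160.2). Its H3K4me3 cover varied least, at 2096, 2287, 1950 and 2264 bp. The TSS was inside H3K4me3 in all 4 lists. In XY progenitors the mark formed 1 region over the TSS, and in the other populations it formed 2, and the region that held the TSS was 1001 bp wide. A peak size of 1000 bp was set for H3K4me3, so a region of 1001 bp is a single peak.

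*Nkx2-3* and *Nkx2-5* are NK2 genes of the mesoderm, needed for spleen and gut and for the heart. *Nkx2-3* lies on the plus strand of chromosome 19 from 43686815 to 43690381 (ENSMUSG00000044220.11). H3K4me3 covered 1001 bp of its window in XY progenitors, 3902 bp in XX progenitors, 1235 bp in Sertoli and 2322 bp in pregranulosa cells, the widest spread of the 8 genes. In XY progenitors the called bases lay upstream, from -1911 to -911 bp relative to the TSS, and in Sertoli cells they lay downstream, from 302 bp after it. The TSS was inside H3K4me3 in XX progenitors and pregranulosa cells and outside in the 2 XY populations. The gene body was covered over 28.1%, 100%, 78.5% and 63.4%.

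*Nkx2-5*, a core regulator of heart formation, lies on the minus strand of chromosome 17 from 26975609 to 26978510 (ENSMUSG00000015579.4). It had little H3K4me3, with 1325 bp of the window covered in XY progenitors, 1798 bp in XX progenitors, 1001 bp in Sertoli and 520 bp in pregranulosa cells. The position of the mark differed between lists. In Sertoli cells a single region of 1001 bp held the TSS, and in pregranulosa cells the region began 1481 bp downstream of it. In XY progenitors the region began 53 bp downstream, and in XX progenitors 2 regions were called, of which 1 held the TSS. No base of the *Nkx2-3* or *Nkx2-5* window was in H3K4me3 in all 4 populations, whereas the other 6 genes each had such a stretch of at least 100 bp. The *Nkx2-5* call in pregranulosa cells was lost with a window of TSS ± 1 kb, and those of *Nkx2-4* and *Nkx2-5* in Sertoli cells were lost when the widest 75% of regions were kept.

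*Nkx3-2*, also called Bapx1, acts in the axial skeleton, the jaw joint and the spleen. It lies on the minus strand of chromosome 5 from 42152404 to 42155735 (ENSMUSG00000049691.6). H3K4me3 covered 3590 and 4001 bp of its window in XY and XX progenitors, and 2627 and 2213 bp in Sertoli and pregranulosa cells. *Nkx3-2*, *Nkx2-2* and *Nkx2-5* were the 3 members with less H3K4me3 cover in both E13.5 populations than in either E10.5 population. The TSS was inside H3K4me3 in all 4.

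*Nkx6-1* and *Nkx6-2* act in ventral neural progenitors, *Nkx6-1* also in pancreatic beta cells and *Nkx6-2* in oligodendrocytes. *Nkx6-1* lies on the minus strand of chromosome 5 from 102087158 to 102094245 (ENSMUSG00000035187.8), and *Nkx6-2* on the minus strand of chromosome 7 from 146765276 to 146768696 (ENSMUSG00000041309.10). H3K4me3 covered 2541, 4001, 2879 and 2872 bp of the *Nkx6-1* window in XY progenitors, XX progenitors, Sertoli cells and pregranulosa cells. It covered 3246, 4001, 3442 and 3173 bp of the *Nkx6-2* window. Both TSSs were inside H3K4me3 in all 4 populations.

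**Figure D2:**
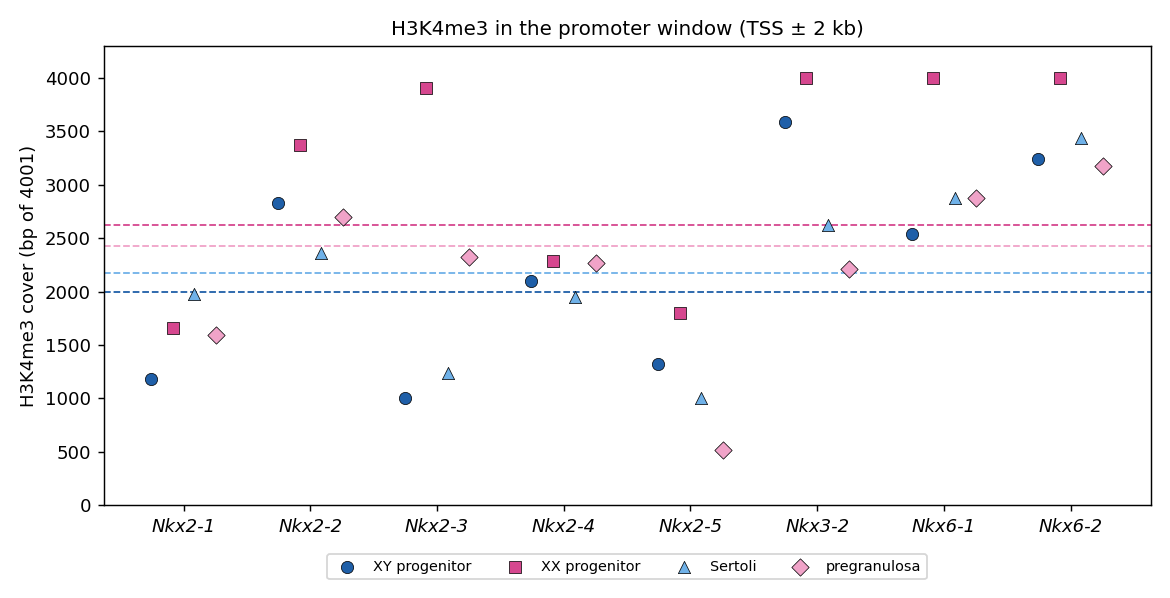
Bases of the 4001 bp promoter window covered by H3K4me3 (y axis) for each Nkx gene, 1 point per population, with dashed lines at the median over all bivalent promoters of that population (1993, 2624, 2170 and 2427.5 bp). Points run from 520 bp for *Nkx2-5* in pregranulosa cells to 4001 bp for 3 genes in XX progenitors, and each point is 1 pooled list with no error bar.

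Over the 8 genes, the median H3K4me3 cover of the window was 2318.5 bp in XY progenitors, 3636.5 bp in XX progenitors, 2168 bp in Sertoli and 2293 bp in pregranulosa cells. The medians over all bivalent promoters were 1993, 2624, 2170 and 2427.5 bp. The TSS of 5, 7, 6 and 6 of the 8 genes was inside H3K4me3, against 89.1%, 94.5%, 90.4% and 92.3% of all bivalent promoters and 59.2%, 62.8%, 61.1% and 62.5% of all protein-coding promoters. In all, 24 of 32 pairs of gene and population had H3K4me3 at the TSS, and the 8 that lacked it belonged to *Nkx2-1*, *Nkx2-3* and *Nkx2-5*. This split depended on the annotated start. The RefSeq start of *Nkx2-2* was inside H3K4me3 in XX progenitors but outside it in XY progenitors, Sertoli cells and pregranulosa cells.

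Between populations, the extent of H3K4me3 in the window differed at every member. All 8 genes had more H3K4me3 bases in XX than in XY progenitors, as had 87.2% of promoters bivalent in both, with fewer at 10.4%. All 8 had fewer in pregranulosa cells than in XX progenitors, as had 63.2%, with more at 33.9%. From XY progenitors to Sertoli cells, 4 genes had more (61.4% of all) and 4 fewer (35.7%). Between the E13.5 populations, pregranulosa cells had more than Sertoli cells at 3 genes (66.6%) and fewer at 5 (30.7%), among them *Nkx2-1*, *Nkx2-5* and *Nkx3-2*. The XX progenitor H3K4me3 list rests on the most tags and the XY progenitor list on the fewest among the 3 lists of known depth, and the part of depth in these differences was not tested.

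H3K27me3 formed broad regions around the Nkx genes, wider than at most bivalent promoters. The region over the *Nkx2-3* promoter was the widest, at 64761 bp in XY progenitors, 63661 bp in XX progenitors, 69596 bp in Sertoli and 67172 bp in pregranulosa cells. At *Nkx2-1* the widths were 41089, 40968, 44321 and 44356 bp, and at *Nkx2-5* 44489, 42555, 43487 and 42684 bp. *Nkx2-2* had 32368, 32090, 35775 and 36931 bp, and *Nkx3-2* 33166, 35703, 37035 and 34841 bp. *Nkx6-1* had 31885, 33957, 42624 and 37321 bp. The narrowest regions were those of *Nkx2-4*, at 15008, 16988, 20226 and 19350 bp, and *Nkx6-2*, at 22899, 16868, 31921 and 22188 bp.

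The median width over the 8 genes was 32767, 34830, 39829.5 and 37126 bp in XY progenitors, XX progenitors, Sertoli cells and pregranulosa cells, beside 8015, 9089.5, 11594.5 and 10932 bp over all bivalent promoters. With 30 kb as a limit, chosen after the widths were seen, 6, 6, 7 and 6 of the 8 genes lay in a region at least that wide, against 6.54%, 14.6%, 13.1% and 15.0% of promoters with H3K27me3. In every population each of the 8 widths exceeded the median over all bivalent promoters.

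**Figure D3:**
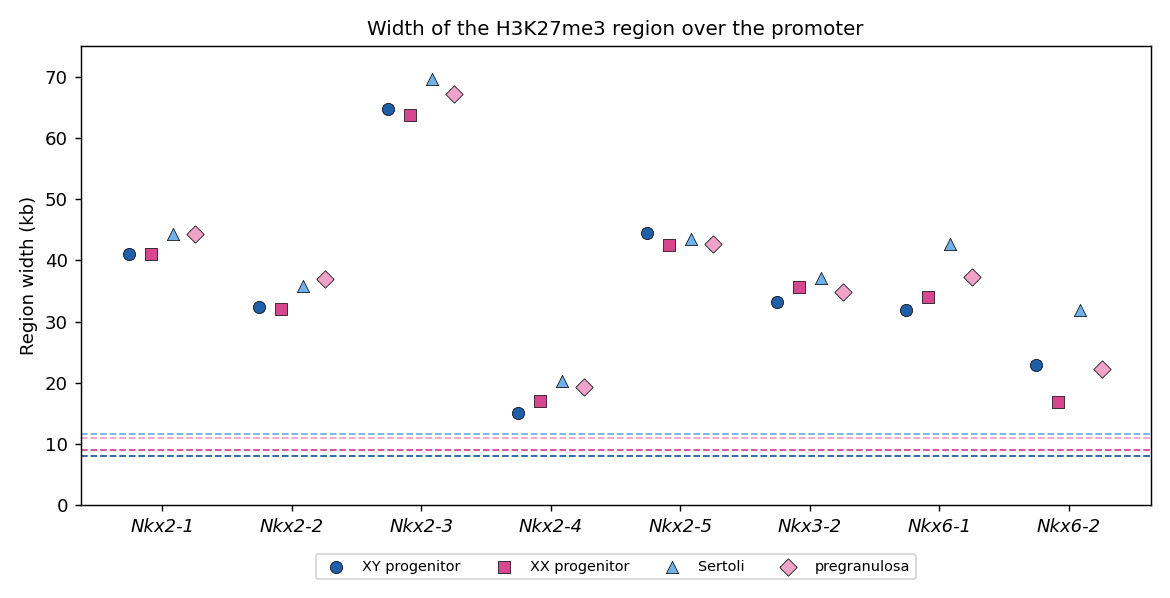
Width in kb (y axis) of the H3K27me3 region over the promoter of each Nkx gene, 1 point per population, with dashed lines at the median over all bivalent promoters of that population. *Nkx2-3* sits highest at 63661 to 69596 bp, and *Nkx2-4* lowest at 15008 to 20226 bp except in XX progenitors, where *Nkx6-2* is lower at 16868 bp, with all points above the dashed lines at 8015 to 11594.5 bp.

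Most regions kept similar widths across populations. Over the 4 lists, the highest width was 1.05 times the lowest at *Nkx2-5*, 1.08 times at *Nkx2-1* and 1.09 times at *Nkx2-3*, and the largest ratio was 1.89 at *Nkx6-2*. As called, each region also leaned to the same side of its TSS in all 4 populations. At *Nkx2-1*, *Nkx2-2*, *Nkx3-2* and *Nkx6-1* it reached further downstream, for example 30597 to 33989 bp downstream and 9441 to 11495 bp upstream at *Nkx2-1*. At *Nkx2-3*, *Nkx2-4*, *Nkx2-5* and *Nkx6-2* it reached further upstream, for example 46872 to 48657 bp upstream and 16183 to 20938 bp downstream at *Nkx2-3*. The upstream edge of *Nkx2-3* thus moved by 1785 bp over the 4 lists, less than the size of a single 5000 bp H3K27me3 window of the peak caller.

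*Nkx6-2* was the exception, with an upstream edge 19024 bp from the TSS in XY progenitors, 10383 bp in XX progenitors, 24535 bp in Sertoli and 13544 bp in pregranulosa cells. In both E13.5 lists a further H3K27me3 region followed upstream after a short gap, and with regions within 5 kb joined the widths became 22899, 16868, 52884 and 31043 bp. At *Nkx2-5* further regions followed downstream after short gaps in XX progenitors, Sertoli cells and pregranulosa cells, and the same joining gave 44489, 49445, 60787 and 53570 bp. The joined *Nkx2-5* region then reached further downstream than upstream in XX progenitors (26089 bp against 23355 bp) and in Sertoli cells (33923 bp against 26863 bp), so its side depended on the gap allowed. At *Nkx2-3* the Sertoli width became 78414 bp. The ratio of highest to lowest width became 3.14 at *Nkx6-2*, 1.37 at *Nkx2-5* and 1.23 at *Nkx2-3*, and the widths of *Nkx2-1*, *Nkx2-2*, *Nkx2-4*, *Nkx3-2* and *Nkx6-1* stayed as they were.

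From E10.5 to E13.5 the H3K27me3 region was wider at 7 of 8 genes in each sex. The ratio of Sertoli to XY progenitor width had a median of 1.11 and ran from 0.977 to 1.39, and 76.1% of all promoters bivalent in both were wider in Sertoli cells, with a median ratio of 1.25. The ratio of pregranulosa to XX progenitor width had a median of 1.09 and ran from 0.976 to 1.32, and 61.4% of promoters were wider, with a median of 1.08. The exceptions were *Nkx2-5* in Sertoli cells and *Nkx3-2* in pregranulosa cells. With regions within 5 kb joined, *Nkx2-5* was wider in Sertoli cells, at 60787 bp against 44489 bp, so that 8 of 8 genes were wider there with a median ratio of 1.27, and *Nkx3-2* remained the exception among 8 in pregranulosa cells. Between the sexes, 3 genes were wider in XX than in XY progenitors (54.1% of all) and 2 in pregranulosa than in Sertoli cells (36.5%). The Sertoli list was called from more H3K27me3 tags than the XY progenitor list, and the part of depth was not tested. The pregranulosa H3K27me3 list has no header, so its settings are not known. It held 12609 peaks that did not overlap, with a median of 8910 bp, whereas the median peak was 5001 bp in each other H3K27me3 list. Widths in pregranulosa cells may therefore not be like for like, and the part of this in the differences was not tested.

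No other protein-coding gene had its TSS in the H3K27me3 region of a member. *Nkx2-2* and *Nkx2-4* lie near each other on chromosome 2 and were covered by separate regions in all 4 lists. Noncoding neighbours shared the regions of 3 members in every population. These were *Nkx2-2as* and 6430503K07Rik at *Nkx2-2*, Gm20467 and AC138790.1 at *Nkx2-3*, and Gm20468 at *Nkx2-5*, with TSSs 1700 bp (Gm20467) to 19878 bp (Gm20468) from that of the member.

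Inside these regions, H3K4me3 occupied a minor part of the bases, from 6.35% of the *Nkx2-5* region in Sertoli cells to 43.2% of the *Nkx6-2* region in XX progenitors. Some of this H3K4me3 lay far from the promoter and at the same place in every population. Within 55 kb of the 8 TSSs, 16 stretches of at least 100 bp were in H3K4me3 in all 4 lists, 9 in the promoter windows and 7 outside them. All 7 were wholly in H3K27me3 in all 4 lists as well, and 6 lay in the same H3K27me3 region as the promoter. Stretches of this kind were not counted around other genes, so whether they are particular to the Nkx genes was not tested.

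At *Nkx2-3* the shared stretches outside the window lay 41340 to 40340 bp and 27886 to 26728 bp upstream, the latter holding the run printed above, and 2069 to 3069 bp downstream within the gene. At *Nkx2-5* a stretch of 1523 bp lay 9844 to 8322 bp upstream, also printed above in part, and it was longer than the H3K4me3 region at the *Nkx2-5* TSS in Sertoli cells. A second, 44570 to 43166 bp upstream of *Nkx2-5*, lay beyond its H3K27me3 region, over the noncoding genes Gm17382 and Gm20468. *Nkx3-2* had a stretch 4456 to 2814 bp upstream, and *Nkx6-1* had a stretch 16586 to 17638 bp downstream, past the end of the gene. The stretches upstream of *Nkx3-2* and downstream of *Nkx6-1*, those upstream of *Nkx2-3* and that nearer to *Nkx2-5* overlapped no annotated gene and lay more than 2 kb from every annotated TSS.

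The Nkx promoters were rich in CpG dinucleotides. The window held 298 CpGs at *Nkx6-2*, 280 at *Nkx6-1*, 272 at *Nkx2-4*, 176 at *Nkx2-2*, 167 at *Nkx3-2*, 161 at *Nkx2-3*, 155 at *Nkx2-1* and 135 at *Nkx2-5*. The median was 171.5, beside 125 over the 3053 promoters bivalent in all 4 populations and 85 over all protein-coding promoters. The number of CpGs did not order the genes by H3K4me3 cover. *Nkx2-5* and *Nkx2-1*, with the fewest CpGs, had the lowest cover in XX progenitors and pregranulosa cells, but *Nkx2-3* and *Nkx2-1* had the lowest in XY progenitors and *Nkx2-5* and *Nkx2-3* in Sertoli cells. The upstream runs printed above show the same range, from 8 CpGs in 250 bases at *Nkx2-5* to 26 at *Nkx6-2*.

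**Figure D4:**
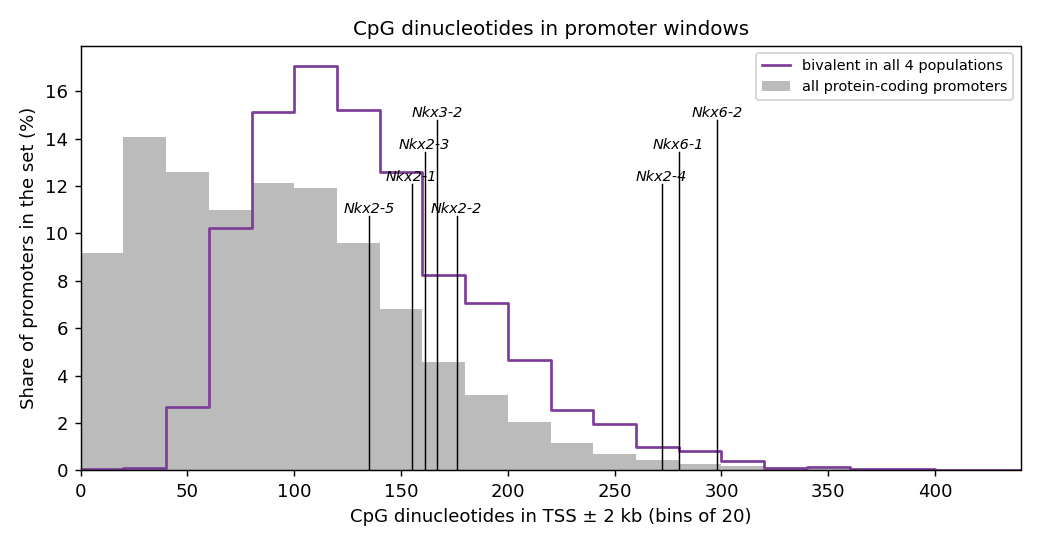
Share of promoters (y axis, percent of each set) by the number of CpG dinucleotides in the 4001 bp window (x axis, bins of 20), for all 22367 protein-coding genes (grey bars) and the 3053 bivalent in all 4 populations (purple line). Black lines mark the Nkx genes, with *Nkx2-5* lowest at 135 and *Nkx6-2* highest at 298; their heights only separate the labels.

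Within the H3K27me3 regions, CpGs were denser where H3K4me3 was called. This held for all 32 pairs of gene and population, with 36.2 to 119 CpGs per kb inside H3K4me3 and 6.21 to 20.4 outside. The ratio of the densities had a median of 3.76 and ran from 2.23 at *Nkx2-3* in XY progenitors to 19.1 at *Nkx2-4* in XY progenitors. The 4 lists of a gene share the same DNA. Over all bivalent promoters whose H3K27me3 region held bases both inside and outside H3K4me3, CpGs were denser inside H3K4me3 at 99.2% in XY progenitors, 99.5% in XX progenitors, 98.9% in Sertoli and 99.1% in pregranulosa cells, with median ratios of 4.06, 3.78, 3.94 and 3.84. The median ratios over the 8 Nkx genes were 3.12, 3.71, 3.94 and 4.002, so the pattern was that of bivalent promoters at large.

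**Figure D5:**
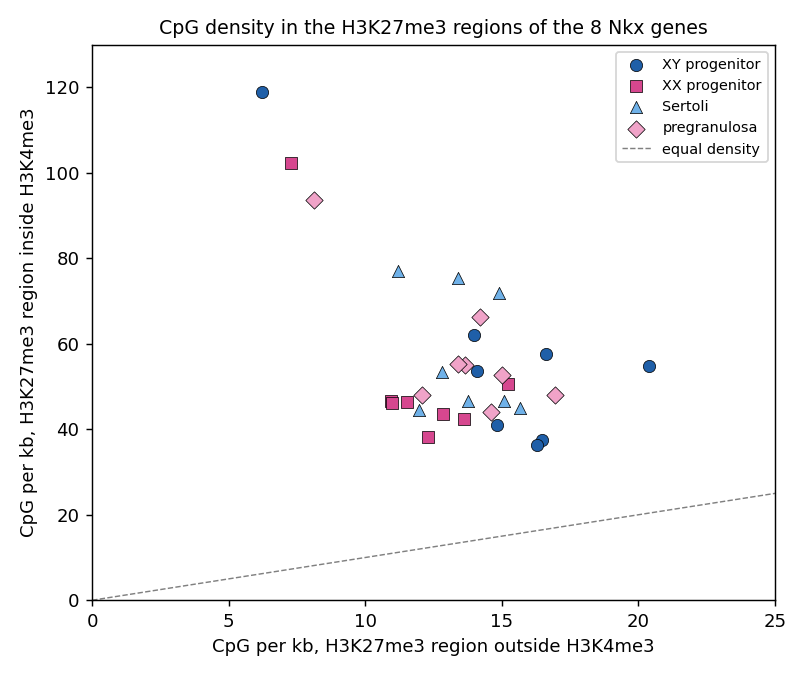
CpG dinucleotides per kb in the H3K27me3 region of each Nkx gene, inside H3K4me3 (y axis) against outside it (x axis), 1 point per gene and population. All 32 points lie above the dashed line of equal density, and the point at the upper left, at 119 inside and 6.21 outside, is *Nkx2-4* in XY progenitors.

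The letters CAAGTG, the core of the site bound by NK2 homeodomains, were found on either strand in all 8 windows, 1 to 5 times, and in 91.2% of all protein-coding promoter windows.

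Among 39 other homeobox genes of the NK-like class, 32 were bivalent in XY progenitors, 38 in XX progenitors, 34 in Sertoli cells and 35 in pregranulosa cells, and 30 were bivalent in all 4. Their median H3K27me3 region was 34808, 31723, 39187 and 38853 bp wide, close to that of the 8 Nkx genes, and their median window held 178 CpGs. Of the 9 that were not bivalent in all 4, *Emx2*, required for the gonad and kidney to form, had H3K4me3 without H3K27me3 in pregranulosa cells. *Nkx1-1*, *Tlx1*, *Lbx1*, *Bsx* and *Vax1* had H3K27me3 alone in XY progenitors, and *Nkx1-1* and *Vax1* were bivalent in the other 3 lists. *Tlx1* also had H3K27me3 alone in pregranulosa cells, and *Lbx1*, *Bsx* and *Barhl1* in Sertoli cells. Among the 39 were 6 further Nkx genes, of which 3 were bivalent in all 4 lists. The others were *Nkx1-1* and 2 not named here, 1 with H3K27me3 alone in all 4 lists and 1 with H3K27me3 alone in 3, so Nkx genes beyond the 8 members were not uniformly bivalent. Among all of these genes, members included, *Emx2* was the only one whose promoter lacked H3K27me3 in any list. The H3K4me3 list was called from 10162534 tags in XY progenitors and 49254553 in XX progenitors, where 7 and 1 of the 39 genes had H3K27me3 alone. The part of depth in these states was not tested.

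The 5 protein-coding genes outside both lists whose promoter cover in the 8 lists was nearest to the mean over the Nkx genes were *Hoxd13*, *Panx2*, *Ncald*, *Slc7a10* and *Cadm3*. *Hoxd13*, a HOX gene of the distal limb and genital tubercle, was nearest, with a mean absolute difference of 0.904 percentage points over the 8 lists. Its H3K4me3 cover was 2074, 3185, 2153 and 2158 bp, with all 4001 bp in H3K27me3 in each population. The mean absolute difference was 0.958 for *Panx2*, a pannexin channel gene, 1.01 for *Ncald*, 1.05 for *Slc7a10*, an amino acid transporter gene, and 1.41 for *Cadm3*, a cell adhesion gene. The Nkx genes themselves lay further from their own mean, from 3.94 percentage points for *Nkx2-4* to 15.9 for *Nkx2-5*. The 5 other genes were picked for the smallest difference among 22320 candidates, so their nearness follows from that choice.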

How the data were processed

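H3K4me3, H3K27me3 and H3 were profiled by MNase ChIP-seq with *Drosophila* carrier chromatin. Alignment to mm9 used Bowtie, and the authors called peaks in HOMER findPeaks (histone style, peak size 5000 bp for H3K27me3 and 1000 bp for H3K4me3, 4-fold over H3, Poisson p-value 0.0001 over input, per the file headers). The deposited lists give positions and a score that is the same for every peak, so no level of enrichment was used. Headers of 6 lists name joined replicates, and 2 lists have no header.

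Overlapping or touching peaks of a list were joined into regions, since 3 H3K27me3 lists held overlapping windows. Promoters were TSS ± 2 kb around the 5′ end of GENCODE release M1 genes on NCBIM37, on chromosomes 1 to 19, X and Y. Positions count from 1. Members and lists were chosen with earlier results of these data known. Genes named were all members, noncoding neighbours found when no coding one was, NK-like genes not bivalent in every list (7 of 9, 2 are not reported here), and the 5 nearest profiles. The distal H3K4me3 stretches were examined after the data were seen. Promoter sequences of RefSeq (GRCm38.p6) were placed on mm9 by exact match for 8 of 8 genes, to give the RefSeq starts. Protein sequences were not used here. The steps were tested on simulated data, where 400 of 400 states were recovered. Alternatives changed the overlap, window, TSS, regions kept and joining. Python 3.11.15 and matplotlib 3.10.9 were used, with bedtools 2.31.1 for the test of covered bases.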

Additional observations from a re-analysis of the deposited data

Results flagged for a closer look

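At 6 genes a measure, as called, differed from E10.5 to E13.5 in opposite directions in the male and female lineages, which is why they are listed. Each lineage is a difference of 2 pooled lists, so the difference between lineages was not tested. H3K4me3 cover of the promoter window differed by 794 bp between Sertoli cells and XY progenitors and by -66 bp between pregranulosa cells and XX progenitors at *Nkx2-1*, by 234 and -1580 bp at *Nkx2-3*, by 338 and -1129 bp at *Nkx6-1*, and by 196 and -828 bp at *Nkx6-2*. The width of the H3K27me3 region differed by -1002 and 129 bp at *Nkx2-5* and by 3869 and -862 bp at *Nkx3-2*. At *Nkx2-5* the opposition rested on short gaps between called regions: with regions within 5 kb joined, the width went from 44489 to 60787 bp in the male lineage and from 49445 to 53570 bp in the female lineage. All 8 genes had fewer H3K4me3 bases in pregranulosa cells than in XX progenitors, so the H3K4me3 oppositions are the 4 genes with more in Sertoli cells. Over all promoters bivalent in both lists, 61.4% had more in Sertoli cells than in XY progenitors. Fewer in pregranulosa cells than in XX progenitors were found at 63.2%. The share of all promoters with opposite directions was not counted. The XX progenitor H3K4me3 list rests on 49254553 tags and the XY progenitor list on 10162534, and the part of depth was not tested.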

How the results depend on the processing

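Of 281 values under 9 alternatives, 238 stayed within 1.5 times the reported count or within the interval of a share, and 43 moved. Part of the 238 could not fall. Joining regions and using every transcript TSS only add cover, so they cannot remove a mark, and 500 bp lies below the lowest member cover of 520 bp. A fall from 8 to 6 members bivalent in all 4 populations, with the widest 75% of regions, counted as within 1.5 times. No paired analysis was possible because each list pools both replicates, and no replicate could be left out for the same reason. With at least 50% of the window required, 5 members had H3K4me3 and were bivalent in XY progenitors and 4 in Sertoli cells, and 4 (*Nkx2-2*, *Nkx3-2*, *Nkx6-1* and *Nkx6-2*) were bivalent in all 4. State then differed at 1 member between XY and XX progenitors, 1 between XY progenitors and Sertoli cells and 2 between Sertoli and pregranulosa cells, and 16 and 18 other NK-like genes were bivalent in XY progenitors and Sertoli cells. With TSS ± 1 kb, *Nkx2-5* lost H3K4me3 in pregranulosa cells, so state differed at 1 member from XX progenitors and 1 from Sertoli cells. With the widest 75% of regions, *Nkx2-4* and *Nkx2-5* lost H3K4me3 in Sertoli cells, so state differed at 2 members from XY progenitors and 2 from pregranulosa cells. At the RefSeq starts, an alternative chosen after seeing the data, state differed at 1 member, *Nkx2-2*, between XY progenitors and both XX progenitors and Sertoli cells. The median width of the H3K4me3 region became 3646.5 bp in Sertoli cells with regions within 1 kb joined, and 4956.5, 8241.5, 3980 and 6784 bp in XY progenitors, XX progenitors, Sertoli cells and pregranulosa cells with regions within 5 kb joined.

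The share of all protein-coding promoters that was bivalent moved, in the same order, to 19.0%, 21.4%, 17.2% and 19.2% with TSS ± 1 kb, to 9.11%, 16.8%, 9.64% and 13.4% with 50% of the window, to 22.2%, 24.1%, 20.7% and 22.2% with every transcript TSS, and to 16.3%, 17.9%, 15.4% and 17.1% with the widest 75%. With 500 bp required it moved to 19.7%, 18.0% and 19.8% in XY progenitors, Sertoli cells and pregranulosa cells, and with equal numbers of regions to 19.8%, 15.6% and 17.1%. Depth is known for 6 lists, and 11 of the 44 H3K4me3 regions in the windows were a single peak of 1001 bp.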
